A study of Mus musculus with 48 samples.

Results

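The comparison set the RNA pulled down from gonadotropin-releasing hormone (GnRH) neurons of adult female mice against that of prepubertal females, all exposed to vehicle before birth. It rests on 11 of the 48 libraries of the series: 5 from adults, collected in diestrus, and 6 from young mice. They were chosen by their labels of RNA fraction, age and prenatal treatment, and not by any measured value. The mice came from males homozygous for GnRH-Cre and females homozygous for floxed-stop L10a-GFP. In them a Cre recombinase of GnRH neurons removes a floxed stop, so that these cells make the ribosomal protein L10a joined to GFP, and the immunoprecipitate (IP) of preoptic area punches holds RNA bound to tagged ribosomes together with whatever else the pull-down keeps. Both groups carry the tag and the vehicle exposure, and they differ in age. Other libraries were set beside them. The GnRH-depleted supernatants of vehicle mice (5 adult, 6 young) show the surrounding tissue. The IP of mice exposed to the androgen dihydrotestosterone (DHT) before birth (6 adult, 6 young) repeats the age contrast in other animals. A young control, 1 IP and 1 supernatant, carried the floxed L10a-GFP without Cre, and no adult control was used here. Whether a biological replicate is 1 mouse or pooled mice is not in the labels, and the p-values therefore speak only of the scatter among these libraries.

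GnRH neurons are a small, scattered population whose axons reach the median eminence, where pulses of GnRH drive the pituitary and the ovary. Before puberty this release is held low. It then rises as inputs such as kisspeptin neurons, which act through the receptor gene Kiss1r, mature. Like other neuroendocrine cells, GnRH neurons fold a peptide precursor in the endoplasmic reticulum, cleave it and pack it with granins into dense-core granules.

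The 11 libraries held 33602900 to 46759953 counts, and the totals did not differ beyond their spread between ages (exact permutation test, two-sided, p = 0.5325). Of the genes tested, 7.35% ± 2.01 had no read in an adult IP library (SD, n = 5) against 3.57% ± 1.16 in a young one (n = 6), with every adult library above every young one (exact permutation test, two-sided, p = 0.00216, the smallest this design allows, and adjusted p = 0.00649 over 3 library measures). Replicates also resembled each other less in adults, with a median correlation across genes of 0.918 against 0.95 (log2 of CPM + 1; genes are not independent replicates). Adult replicate 2 stood apart, with 10.7% of tested genes unread. Young replicates 5 and 6 belong to the last 10 sample numbers of the series, which are all young libraries. Young DHT IP replicates 4, 5 and 6 and young vehicle supernatants 5 and 6 belong to them too. The sources used here do not say what these numbers stand for, and the calls lost without them are given with the counts of genes. The label of sex was met by the RNA: Kdm5d, Uty and Eif2s3y, on the Y chromosome, had no read in any of the 11 libraries and Ddx3y had 1 read in 1 library.

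Gnrh1, which encodes the precursor of GnRH, was the check of the pull-down. Adult IP libraries held 6065, 1951, 5919, 10542 and 16067 CPM (counts scaled to the library's total), and young ones 1751 to 6817 with a median of 3214. The supernatants averaged 39.5 and 27.9 CPM in adult and young mice, and the control IP without Cre held 61.6 CPM. Every IP library thus stood far above the surrounding tissue. The log2 fold change of Gnrh1 from young to adult was 1.23 ± 0.50 (SE). It did not pass the test (edgeR adjusted p = 0.178), and the age groups overlapped. Adult replicate 5 alone held 16067 CPM, and without it the log2 fold change was 0.83. Rpl10a, whose tagged product is the handle of the pull-down, averaged 178 ± 45.5 CPM in adults and 199.8 ± 52.1 CPM in young mice (SD, n = 5 and 6; log2 fold change -0.15 ± 0.25, edgeR adjusted p = 0.859). The control IP without Cre held 161 CPM of Rpl10a, inside the young range of 150 to 301, so the level of the tag cannot be read from this gene. Fewer cells of a type and less RNA per cell cannot be told apart in such libraries.

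With age Kiss1, Gal and Il33 rose in the IP, as did 6 of 17 genes of granins and peptide processing and 8 of 35 of the secretory pathway, of which 1 fell. The 3 neurofilament chain genes and their partner Ina fell, as did 5 of 21 myelin genes, of which 1 rose. Over all genes, 608 of 15890 genes tested (3.83%) passed at an adjusted p below 0.05 by edgeR's quasi-likelihood test with Benjamini-Hochberg adjustment: 324 were higher in adults (2.04%) and 284 lower (1.79%). With upper-quartile scaling the split was 169 higher and 345 lower, so the balance of rises and falls depends on the scaling, and the median over all genes moved from 0.01 to -0.08 on the log2 scale. Leaving out adult replicate 2 left 154 higher and 178 lower, and leaving out young replicate 1 left 164 and 149. Without young replicate 2, 3, 4 or 6 there were 187, 205, 177 and 186 higher. Without the last 10 sample numbers, which also takes young DHT IP replicates 4, 5 and 6 out of the fit, there were 202 and 170. With all libraries kept and a term for those numbers there were 389 and 324, of which 266 and 236 were calls of the main fit. Of 74 genes that passed and were chosen by the naming rule, 70 still passed with that term and 58 without those numbers. The calls lost without them were those of Tuba1c, Il1f9, Slit2, Tcf7l1, Prkar1b, Gabra3, Tbx3, Six3, Vgf, Chgb, Cnp, Malat1, Meg3, Grb10, Cct6a and Tuba1b. Without adult replicate 2, 60 still passed, and without both 52 did, Kalrn and Phldb2 being among those lost there. At least 2-fold were 89 of the 324 rises and 146 of the 284 falls. Genes that passed, did not overlap and reached 5 CPM in the higher group made up 2.25% of those tested, and the 12 with the largest rise and fall among them are described first within their groups.

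**Figure D1:**
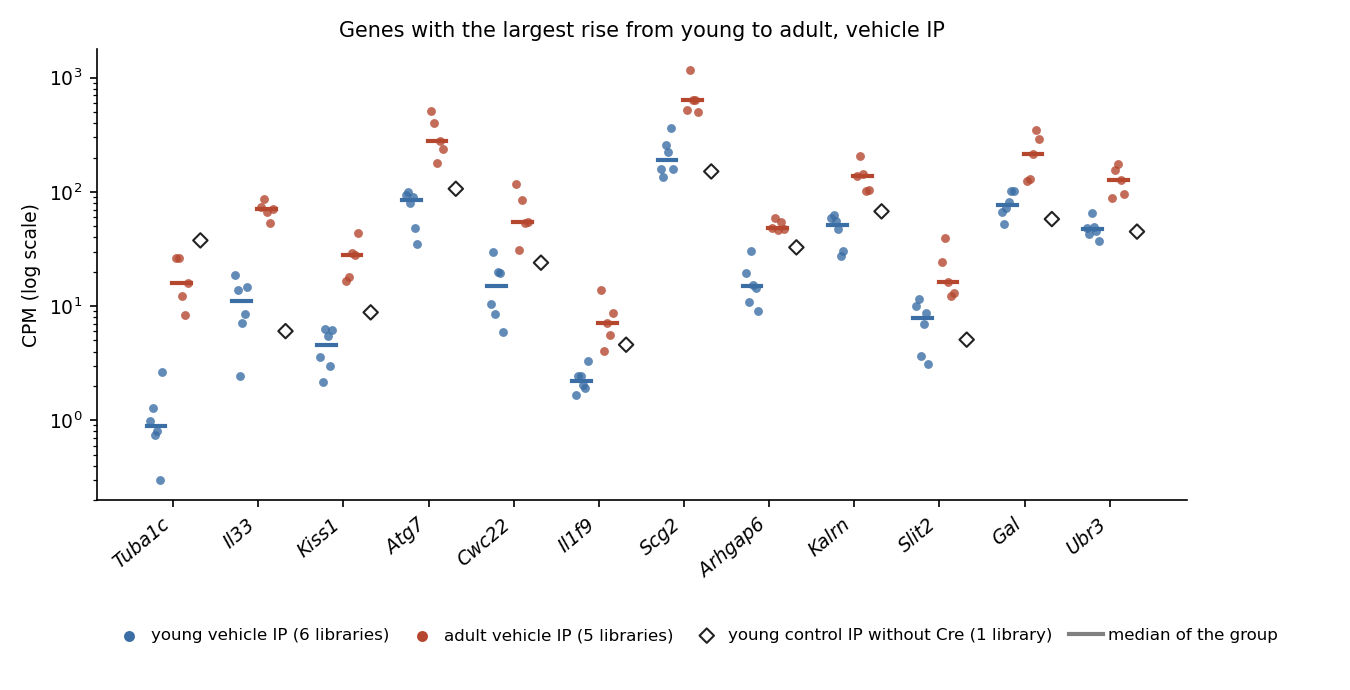
CPM (log scale) of the 12 genes with the largest rise that passed the test without overlap between the ages, in each of the 6 young and 5 adult vehicle IP libraries, with bars at group medians and a diamond for the control IP without Cre. For every gene the adult points lie above the young points, while the control diamond of Tuba1c, at 37.6 CPM, lies above the adult points.

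Kiss1, which encodes kisspeptin, the main excitatory peptide acting on GnRH neurons, stood at 16.8, 18, 28.9, 28.2 and 43.4 CPM in the adult IP libraries and at 2.16 to 6.34 CPM in the young ones (median 4.53). The groups did not overlap, which held for 4.73% of all genes tested (1.62% with adults higher and 3.1% with adults lower). The rise was 6.19-fold (log2 fold change 2.63 ± 0.48, edgeR adjusted p = 0.00268). In the supernatant Kiss1 rose too, by 2.24 ± 0.38 (edgeR adjusted p = 0.000282), and the age differences of the 2 fractions did not differ by the test (0.44 ± 0.60, edgeR adjusted p = 0.904). The young control IP, at 8.81 CPM, was higher than each young IP with Cre. In DHT mice the difference was 1.26 ± 0.45 and did not pass (edgeR adjusted p = 0.0882).

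Gal, the gene of galanin, a peptide that GnRH neurons themselves can make, had 125, 131, 215, 350.0 and 289.6 CPM in adults and 52.7 to 101 CPM in young mice (median 76.5). Each adult library exceeded each young one, and the rise was 2.88-fold (log2 fold change 1.52 ± 0.30, edgeR adjusted p = 0.00499). In DHT mice the log2 difference was 0.34 ± 0.28 for Gal (edgeR adjusted p = 0.582), and in the supernatant Gal rose by 0.79 ± 0.20 (edgeR adjusted p = 0.00659). The young control IP held 57.8 CPM, inside the young range. Penk, the precursor gene of enkephalins, was the third neuropeptide gene to pass: it stood at 228 to 349 CPM in adults and 113 to 239 CPM in young mice (log2 fold change 0.91 ± 0.26, edgeR adjusted p = 0.0429). The call of Penk was lost in 8 of the 11 fits that left out 1 library (edgeR adjusted p from 0.0246 to 0.102 over the 11). Of 33 neuropeptide precursor genes tested, 3 rose, 0 fell and 30 did not pass, with a median log2 fold change of 0.50 against 0.01 over all genes. In the supernatant 10 of the 33 rose, and in DHT IP 0 did by edgeR. Of all genes tested, 10.1% rose in the supernatant, 3.8% in DHT IP and 2.04% in vehicle IP. Counts of list members in these comparisons, here and below, are to be read beside those shares.

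Il33, a nuclear cytokine that glia of the brain make, reached 73.6, 86.5, 66.6, 53.1 and 71.0 CPM in adult IP and 2.46 to 18.7 CPM in young IP (median 11.2). Its adult values were several times the highest young value, and the log2 fold change was 2.73 ± 0.43 (edgeR adjusted p = 0.000599). In the supernatant Il33 rose by 2.85 ± 0.19 (edgeR adjusted p = 2.02e-10; difference between fractions -0.09 ± 0.47, edgeR adjusted p = 0.985), and in DHT IP by 2.46 ± 0.42 (edgeR adjusted p = 0.000735). The largest fitted rise belonged to Tuba1c, an alpha-tubulin gene, at 26.5, 26.4, 12.2, 8.38 and 15.9 CPM in adults and 0.301 to 2.66 CPM in young mice (log2 fold change 4.00 ± 0.91, edgeR adjusted p = 0.0134). Tuba1c rose in the supernatant too (4.73 ± 0.85, edgeR adjusted p = 0.000561) and in DHT IP (3.05 ± 0.87, edgeR adjusted p = 0.0331). The young control lay above the adults, with 37.6 CPM in its IP and 58.0 in its supernatant. Tuba1a and Tuba1b are near copies with which it can share reads. Without the last 10 sample numbers its adjusted p was 0.0501.

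Of the 12 largest rises, 3 were larger in the IP than in the surrounding tissue by the test of the difference itself. The 12 were picked by IP values that also enter this test. Atg7, an enzyme needed to form autophagosomes, had 509, 404, 181, 278 and 239.6 CPM in adults and 34.6 to 99.8 CPM in young mice (log2 fold change 2.16 ± 0.30, edgeR adjusted p = 0.000135). In the supernatant it had 0.02 ± 0.13, a difference of 2.18 ± 0.33 between the fractions (edgeR adjusted p = 5.84e-05), and in DHT IP it rose by 2.16 ± 0.29 (edgeR adjusted p = 6.82e-05). Kalrn, an exchange factor of small GTPases in dendrites and spines, stood at 137, 204, 143, 102 and 105 CPM in adults and at 27.2 to 63.2 CPM in young mice. Its rise of 1.61 ± 0.33 (edgeR adjusted p = 0.00638) stood beside -0.11 ± 0.11 in the supernatant, a difference of 1.76 ± 0.35 (edgeR adjusted p = 0.00459). Ubr3, a ubiquitin ligase gene, had 88.5, 157, 174, 126 and 95.4 CPM in adults against 36.9 to 65.0 CPM in young mice, rising by 1.47 ± 0.23 (edgeR adjusted p = 0.000441). The fractions differed for Ubr3 by 1.41 ± 0.27 (edgeR adjusted p = 0.00274). Without tagged ribosomes, Atg7 was 2.47-fold and Kalrn 2.86-fold higher in the IP than in its supernatant, and Ubr3 0.989-fold. The part that such unspecific pull-down has in the adult rise was not tested. Young replicates 5 and 6 held the lowest Atg7 and Kalrn, and without the last 10 sample numbers the rises were 1.88 and 1.37 (edgeR adjusted p = 0.00102 and 0.0376).

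The other 5 of the largest rises were Cwc22, Il1f9, Arhgap6, Slit2 and, among the granins, Scg2. Cwc22, a splicing factor gene with near-identical copies in some mouse strains, went from 15.6 ± 8.98 to 68.2 ± 33.7 CPM (SD, n = 6 and 5; log2 fold change 2.16 ± 0.44, edgeR adjusted p = 0.00579). Reads of such copies cannot be told apart here. Arhgap6, a GTPase-activating protein gene, went from 16.6 ± 7.65 to 51.1 ± 5.64 CPM (1.67 ± 0.27, edgeR adjusted p = 0.000637). Slit2, which encodes a secreted axon guidance protein, had 3.1 to 11.6 CPM in young mice and 12.3 to 39.4 CPM in adults (1.58 ± 0.39, edgeR adjusted p = 0.0224), and its call was lost without adult replicate 2 (adjusted p = 0.105) or young replicate 3 or 6 (adjusted p = 0.0507 and 0.0509). Il1f9, an interleukin of the IL-1 family, went from 2.30 ± 0.579 to 7.81 ± 3.72 CPM (1.78 ± 0.48, edgeR adjusted p = 0.0374). The call of Il1f9 was lost in 8 of the 11 fits without 1 library, with adjusted p up to 0.0982. In the supernatant Cwc22, Il1f9 and Arhgap6 rose by 2.01 ± 0.51, 1.42 ± 0.36 and 0.64 ± 0.17 (edgeR adjusted p = 0.00842, 0.00667 and 0.00997), and Slit2 had 0.18 ± 0.13 (edgeR adjusted p = 0.35). Of the 4, only Cwc22 passed in DHT IP (1.34 ± 0.41, edgeR adjusted p = 0.0481). Kiss1 shares annotated bases with Golt1a, Cwc22 with Gm13727 and Arhgap6 with Hccs, so the counts of these genes are uncertain to that extent.

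Granins fill the dense-core granules in which peptides are stored, and convertases and their helpers cut the precursors. Of 17 such genes tested, 6 rose, 0 fell and 11 did not pass (median log2 fold change 0.72, against 2.04% of all genes higher and a median of 0.01). Scg2, the secretogranin II gene, had 523, 1174, 638, 639.7 and 500.1 CPM in adults and 136 to 362 CPM in young mice (median 189). The groups did not overlap, and replicate 2 was the highest adult. The log2 fold change was 1.74 ± 0.26 (edgeR adjusted p = 0.000331), and 1.45 without that library. In DHT IP and in the supernatant Scg2 rose by 1.01 ± 0.25 and 1.01 ± 0.20 (edgeR adjusted p = 0.0139 and 0.000978), and the control IP, at 151 CPM, was within the young range. Vgf, the gene of a neuropeptide precursor stored with the granins, had 56.6 to 229 CPM in adults and 42.2 to 91.3 CPM in young mice (1.20 ± 0.30, edgeR adjusted p = 0.0251). Chgb, the chromogranin B gene, had 88.8 to 247 CPM and 52.8 to 105 CPM (1.02 ± 0.26, edgeR adjusted p = 0.0289). Scg3, which helps to sort granins into granules, had 59.0 to 115 CPM and 47.7 to 67.6 CPM (0.75 ± 0.18, edgeR adjusted p = 0.0201). In Vgf, Chgb and Scg3 the age groups overlapped. Scg5 and Prepl, chosen here after their values were seen, completed the 6 at 0.72 ± 0.19 and 0.88 ± 0.25. Adult replicate 2 held the highest Scg2, Vgf and Chgb values. Without it 3 of the 17 genes passed, as they did without adult replicate 4 or young replicate 2 or 6. Without young replicate 4 it was 2 and without young replicate 1 it was 1, as in a fit of the 11 libraries alone. Without the last 10 sample numbers 4 passed. The call of Vgf was lost in 5, of Chgb in 6 and of Scg3 in 3 of the fits without 1 library. In the supernatant 7 of the 17 rose, and the age difference of 0 of them differed between IP and supernatant. In DHT IP 2 rose and 1 fell. Of all genes, 10.1% rose in the supernatant and 3.8% in DHT IP.

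The same direction held in genes that fold secreted proteins. Of 35 genes of the secretory pathway and the unfolded protein response, 8 rose, 1 fell and 26 did not pass, with a median of 0.34. Hspa5, the chaperone BiP, stood at 263, 695, 304, 419 and 433 CPM in adults and 154 to 295 CPM in young mice (median 194). Adult replicate 2 was again the highest, and the lowest adult library lay inside the young range. The log2 fold change was 1.07 ± 0.23 (edgeR adjusted p = 0.00821). Hsp90b1, the chaperone GRP94, had 202, 385, 217, 241 and 256 CPM against 94.7 to 185 CPM (1.05 ± 0.22, edgeR adjusted p = 0.00708), with no overlap. Pdia3, a disulfide isomerase gene that works with calnexin, had 210.4, 235, 175, 242 and 246 CPM against 74.5 to 161 CPM (1.04 ± 0.18, edgeR adjusted p = 0.00177), also with no overlap. Canx, the gene of calnexin, a chaperone of glycoproteins, had 135 to 365 CPM and 87.1 to 139 CPM (1.07 ± 0.23, edgeR adjusted p = 0.00827). The others that rose were Dnajc3 (1.13 ± 0.29), Pdia6 (0.92 ± 0.21), Calr (0.89 ± 0.22) and Ssr1 (0.77 ± 0.21). Atf4, a transcription factor of the stress response, was the 1 that fell, by 0.59 on the log2 scale. Without adult replicate 2, 4 of the 35 rose, without young replicate 2, 5 did, and without the last 10 sample numbers 6 did. In a fit of the 11 libraries alone 5 rose, and with a block on the replicate number 0 did. In 10 of the 11 fits without 1 library 0 of the 35 fell. In DHT IP 5 of the 35 rose and 0 fell, with a median of -0.00032 on the log2 scale. In the supernatant 12 rose (against 10.1% of all genes) and 1 fell, and the age difference of 0 of the 35 differed between IP and supernatant by the test.

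Promoter windows are shown for the granin and secretory pathway genes that rose together, because their start regions hold different known elements. The sequences are from RefSeq (build GRCm38.p6, the assembly of mm10), and the window searched was the 250 bases before each gene's start, on both strands. The cAMP response element was searched as TGACGTCA and the endoplasmic reticulum stress response element as CCAAT and CCACG with 9 bases of any kind between them. No listed gene that rose held both. Of 27025 genes in the table, 478 (1.77%) held the first and 35 (0.13%) the second. Capitals mark the fixed letters of the element, and the windows below are 30 bases for the cAMP element and 29 for the stress element. They run 5′ to 3′ in the direction of the element.
Scg2: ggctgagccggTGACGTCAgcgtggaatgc
Chgb: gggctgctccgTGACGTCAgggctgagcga
Hspa5: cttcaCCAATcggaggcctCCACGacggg
Hsp90b1, distal: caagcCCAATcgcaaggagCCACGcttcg
Hsp90b1, proximal: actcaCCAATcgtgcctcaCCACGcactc
Canx: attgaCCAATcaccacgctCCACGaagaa
Calr: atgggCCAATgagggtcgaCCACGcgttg
Pdia6: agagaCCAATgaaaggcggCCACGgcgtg
Dnajc3: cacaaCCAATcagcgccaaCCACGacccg

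The element lay at -68 to -61 from the start in Scg2 (chr1:79440076-79440105, minus strand) and at -72 to -65 in Chgb (chr2:132781559-132781588, plus strand). In the GENCODE M21 annotation all bases of the Scg2, Chgb and Hspa5 windows lie within annotated exons, so that they are upstream of the RefSeq start only. The cAMP element was found in 2 of 5 granin list genes that rose and have a promoter in the table, and in 1 of 9 that did not. The stress element lay at -65 to -47 in Hspa5 (chr2:34772020-34772048, plus strand) and at -145 to -127 in Canx. Hsp90b1, on the minus strand, held it at -212 to -194 (chr10:86705633-86705661) and, in the opposite orientation, at -107 to -89 (chr10:86705528-86705556). It was in 6 of the 8 secretory pathway genes that rose and in 1 of 20 that did not, while Pdia3 and Ssr1 held no match in this window. The list was drawn up to hold genes of the unfolded protein response, for which this element is known, and a match is a description of the letters. The whole Canx window, which overlaps no annotated exon, shows the setting of 1 element (chr11:50325674-50325923, minus strand).
Canx, whole window: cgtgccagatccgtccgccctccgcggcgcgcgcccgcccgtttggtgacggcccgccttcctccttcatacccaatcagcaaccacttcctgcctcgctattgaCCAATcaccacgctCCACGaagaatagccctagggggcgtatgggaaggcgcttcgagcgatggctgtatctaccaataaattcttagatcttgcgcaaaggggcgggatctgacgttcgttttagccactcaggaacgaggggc

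Further lists, 3 in all and added after values had been seen, described neighbouring steps. Of 17 genes that attach N-glycans or form disulfide bonds in the endoplasmic reticulum, 8 rose and 0 fell (median 0.74). Among them were Tusc3 and Ddost, of the oligosaccharyltransferase, at 0.82 ± 0.16 and 0.84 ± 0.17, and the disulfide isomerase gene P4hb at 0.90 ± 0.17. In DHT IP 1 of the 17 rose, and Tusc3, Ddost and P4hb did not pass (edgeR adjusted p = 0.595, 0.257 and 0.492), while in the supernatant 14 of the 17 rose. In vehicle IP 6 of the 17 rose in the fit of the 11 libraries alone, and 4 with the replicate block. Of 35 lysosomal genes 6 rose and 0 fell (median 0.49). In DHT IP 3 of the 35 rose (against 3.8% of all genes) and in the supernatant 16 did (against 10.1%). Without adult replicate 2, 4 of them rose in vehicle IP, and with the replicate block 2 did. Gaa, the acid alpha-glucosidase gene, had 836, 1282, 859, 1046 and 818 CPM in adults and 259.8 to 542 CPM in young mice, with no overlap (1.38 ± 0.19, edgeR adjusted p = 0.000111). In DHT IP Gaa rose by 1.05 ± 0.18 (edgeR adjusted p = 0.000795). The protease gene Ctsb, whose exons overlap those of Fdft1 on the other strand, rose by 0.80 ± 0.17. Of the 8 subunits of the TRiC chaperonin, which folds actin and tubulin in the cytosol, 5 rose and 0 fell (median 0.59). Cct7 had 367 to 579 CPM in adults and 230.5 to 323 CPM in young mice (0.75 ± 0.13, edgeR adjusted p = 0.00149), and Cct4 224 to 374 CPM and 137 to 179.8 CPM (0.82 ± 0.15, edgeR adjusted p = 0.00311). For Cct7 and Cct4 the rise was larger in the IP than in the supernatant, by 0.68 ± 0.16 and 0.73 ± 0.17 (edgeR adjusted p = 0.0229 for both), and in DHT IP 6 of the 8 rose. Without adult replicate 2, 3 or 5, or young replicate 1, 3, 4 or 6, 3 of the 8 rose, and so it was with upper-quartile scaling and without the last 10 sample numbers.

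**Figure D2:**
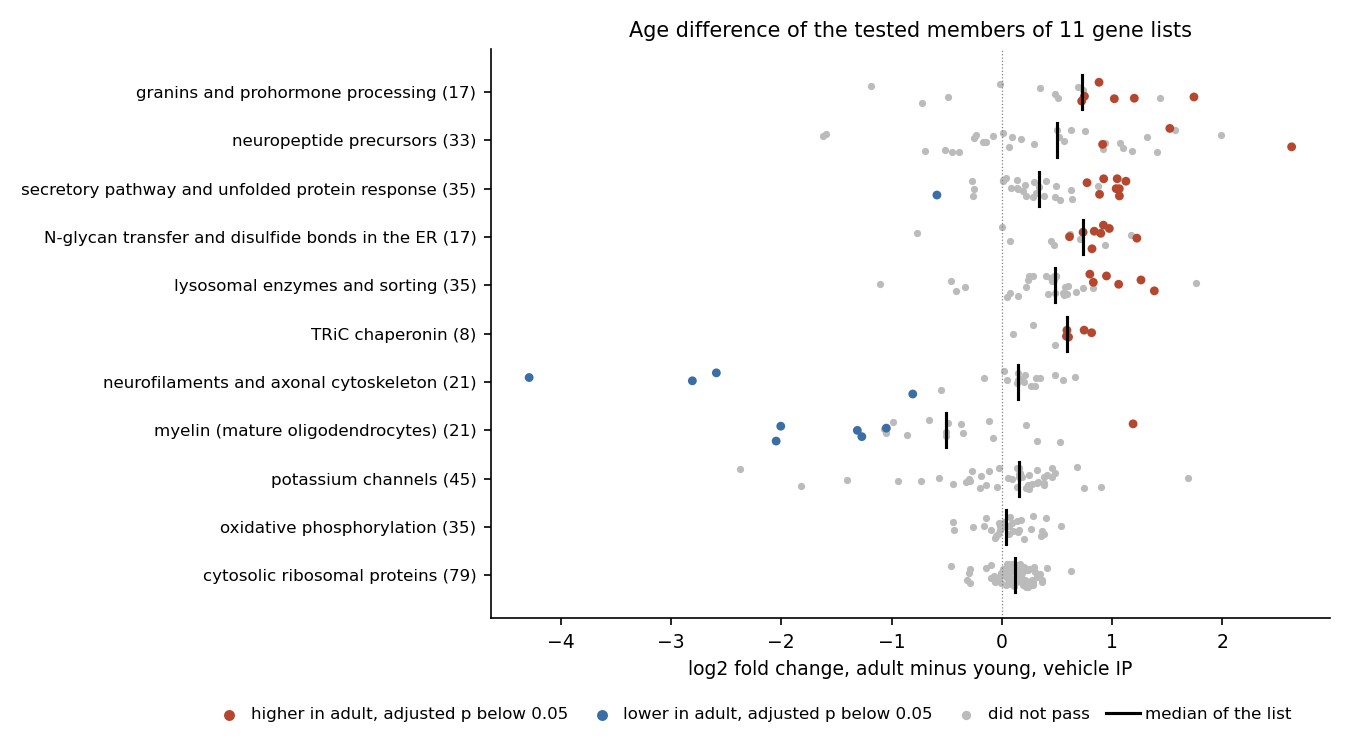
Log2 fold change, adult minus young vehicle IP, of each tested member of 11 gene lists (number tested in brackets). Coloured points passed the test and black bars mark list medians. The granin list has its median at 0.72 and 6 coloured points on the right, the neurofilament list has 4 coloured points on the left and a median of 0.15, and the oxidative phosphorylation and ribosomal protein lists have no coloured point.

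The neurofilament genes, which encode the filaments that set the calibre of axons, fell together. Nefl, the light chain, at position 68083863 to 68089095 of chromosome 14 (mm10, plus strand), stood at 1106, 1114, 704, 649 and 821 CPM in adults. The young libraries held 21693, 22569, 31492, 13755, 11023 and 6122 CPM, the lowest 2 being replicates 5 and 6. No libraries overlapped, and the fall was 19.5-fold (log2 fold change -4.29 ± 0.31, edgeR adjusted p = 4.54e-09). In the supernatant Nefl had -0.14 ± 0.07 (edgeR adjusted p = 0.164), a difference of -4.10 ± 0.28 between fractions (edgeR adjusted p = 2.65e-14). In DHT IP it fell by 3.93 on the log2 scale (SE 0.28, edgeR adjusted p = 3.79e-09). The control IP without Cre held 29998 CPM, 41.5-fold above its supernatant, which is within the young range.

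Nefm and Nefh, the medium and heavy chains, fell by 2.81 ± 0.33 and 2.59 ± 0.53 on the log2 scale (edgeR adjusted p = 2.35e-05 and 0.00630), and Ina, the gene of the partner internexin, by 0.81 ± 0.16 (edgeR adjusted p = 0.00585). Nefh had 139 to 627 CPM in adults and 389 to 4762 CPM in young mice, so its groups overlapped at young replicate 6. Exons of Nefl and Nefm overlap on opposite strands in GENCODE M21, and the library kit marks no strand, so part of the reads counted for Nefm may be those of Nefl. In the control without Cre, Nefm was 7.21-fold higher in IP than in supernatant and Ina 1.95-fold, and Nefh had 4676 CPM in IP and 134 in supernatant. For all 4 the fall was larger in the IP than in the supernatant by the test (-2.08 ± 0.32 for Nefm, -2.63 ± 0.52 for Nefh and -0.67 ± 0.17 for Ina, edgeR adjusted p = 8.72e-05, 0.00446 and 0.0374). In a fit of the 22 vehicle libraries alone the difference between fractions did not pass for Ina (edgeR adjusted p = 0.0641). The other 17 of the 21 genes of the axonal cytoskeleton did not pass, and the list's median was 0.15. Their calls did not depend on adult replicate 2 or on the last 10 sample numbers, without which the same count of 4 fell.

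**Figure D3:**
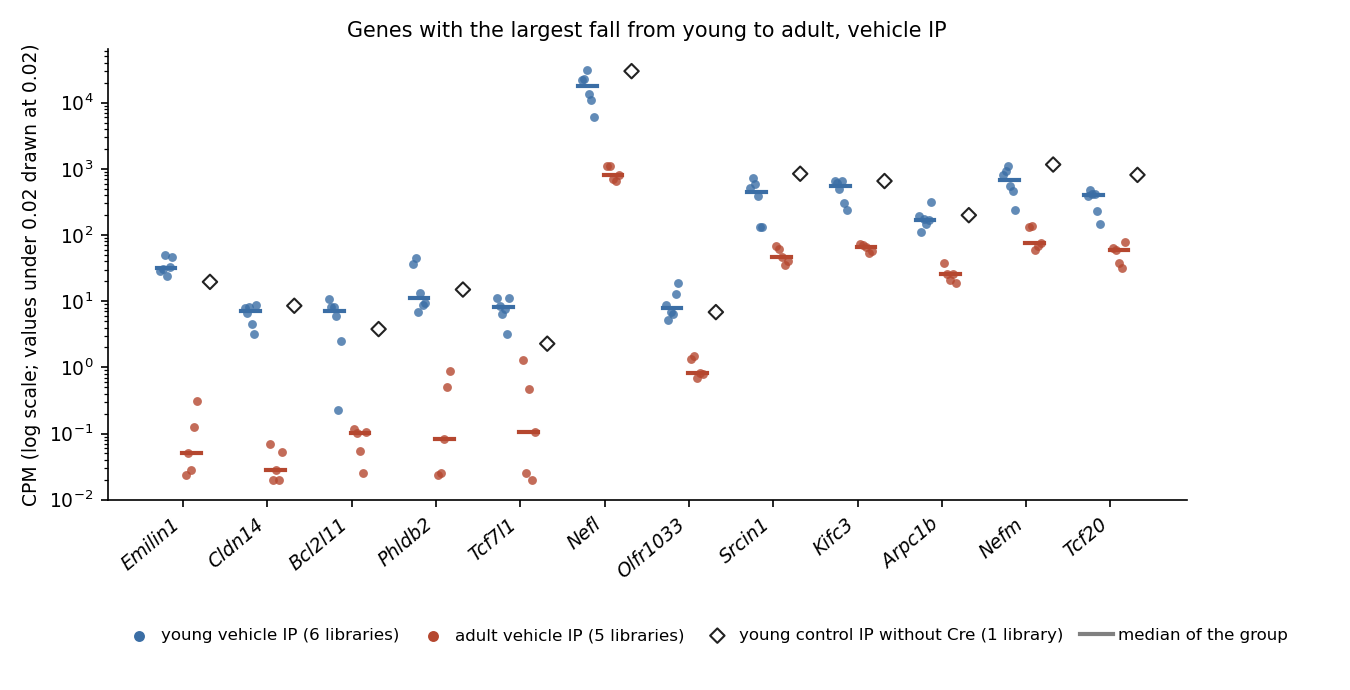
CPM (log scale, values under 0.02 drawn at 0.02) of the 12 genes with the largest fall that passed the test without overlap between the ages, in each young and adult vehicle IP library, with bars at group medians and a diamond for the young control IP without Cre. The diamond of Nefl, at 29998 CPM, lies with the young points, as do those of Srcin1, Kifc3, Nefm and Tcf20 or above them, while all adult points lie lower.

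In the control, a pull-down without tagged ribosomes, 8 of the 12 largest falls had an IP level at least 2-fold above that of the supernatant. They were Emilin1, Phldb2, Nefl, Olfr1033, Srcin1, Kifc3, Nefm and Tcf20. Over all falls this held for 60 of 284 (21.1%) and over those of at least 2-fold for 47 of 146 (32.2%). It held for 10.9% of all genes tested, 5 of 324 rises (1.54%) and 5 of 89 rises of at least 2-fold (5.62%). Among the 12 largest rises it held for 3, which were Atg7, Kalrn and, at 2.16-fold, Il1f9. Kifc3, a minus-end kinesin gene, had 74.4, 70.6, 66.6, 54.2 and 57.5 CPM in adults against 239 to 663 CPM in young mice (-2.88 ± 0.27, edgeR adjusted p = 5.88e-07) and 655 CPM in the control IP. Srcin1, an adaptor of Src signalling at synapses, fell by 2.99 ± 0.44 (edgeR adjusted p = 0.000274), and Tcf20, a transcriptional coregulator gene, by 2.60 ± 0.37 (edgeR adjusted p = 0.000182). The control held 844 CPM of Srcin1 in IP and 84.0 in supernatant, and Tcf20 was 59.8-fold higher in its IP. In DHT IP Kifc3, Srcin1 and Tcf20 fell by 2.73, 2.39 and 2.18 on the log2 scale (edgeR adjusted p = 3.63e-07, 0.000608 and 0.000269). Olfr1033, an olfactory receptor gene, had 0.691 to 1.49 CPM in adults and 5.25 to 19 CPM in young mice (-3.24 ± 0.52, edgeR adjusted p = 0.00061). The control is young, with 1 library per fraction, so how much of the age difference of these genes lies in tagged ribosomes was not tested.

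Without the genes high in the control IP, 229 rose and 234 fell. Tcf20 overlaps AW121686, Arpc1b overlaps Pdap1 and Tcf7l1 overlaps Gm15401 in the annotation. The other large falls follow, of which Emilin1 and Phldb2 were high in the control IP too. Arpc1b, a subunit of the actin-branching Arp2/3 complex, had 37.7, 25.9, 20.6, 25.8 and 18.6 CPM in adults and 110.3 to 316 CPM in young mice. It fell by 2.82 ± 0.35 on the log2 scale (edgeR adjusted p = 5.00e-05), and in the supernatant by 1.96 ± 0.22 (edgeR adjusted p = 1.13e-06). Cldn14, a claudin of tight junctions, had 6 reads in all adult libraries together and 3.21 to 8.72 CPM in young mice. The ratio of summed reads was 216-fold (95% exact interval 99.0 to 589, which covers counting error only), and Cldn14 also fell in the supernatant (-3.66 ± 0.26, edgeR adjusted p = 1.15e-09) and in DHT IP (edgeR adjusted p = 2.76e-05). Bcl2l11, which encodes the pro-apoptotic protein BIM, had 16 reads in all adult libraries and 0.226 to 10.6 CPM in young mice. Its young replicates 5 and 6, at 0.226 and 2.48 CPM, were the lowest, and in DHT IP the log2 fold change was -0.41 ± 0.76. Emilin1, an elastic fibre glycoprotein gene, had 21 adult reads against 24.4 to 50.5 CPM in young mice. Its control held 19.6 CPM in IP and 0.537 in supernatant. Phldb2, a cortical scaffold gene, had 59 adult reads against 6.79 to 45.4 CPM. Tcf7l1, a repressor of Wnt targets, had 0 to 1.30 CPM in adults and 3.14 to 11.1 CPM in young mice (edgeR adjusted p = 0.0374), and lost its call in 9 of the 11 fits without 1 library (adjusted p from 0.0174 to 0.0863).

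Of the 284 genes that fell, 47 had no read in at least 1 adult library (16.5%), a share near that of all genes tested (16.4%). This was so for 1 of the 324 that rose. Fitted fold changes of such genes depend on the small count added before taking logs. Birc5, a cell division gene, had 34 reads in the adult libraries together and 1.16 to 5.28 CPM in young mice, a ratio of 19.7-fold (95% exact interval 14.0 to 28.7, counting error only). It was the 1 proliferation gene of 25 to fall, with 0 rising.

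Myelin RNA, which comes from oligodendrocytes, fell in the IP as it did in the tissue. Of 21 genes of mature oligodendrocytes 5 fell, 1 rose and 15 did not pass (median -0.51). Mobp, a myelin protein gene, had 174, 162, 129, 137 and 109 CPM in adults and 515 to 727 CPM in young mice (a fall of 4.01-fold, SE 0.23 on the log2 scale, edgeR adjusted p = 2.12e-05). Tspan2 fell by 1.31 ± 0.21, Mbp by 1.27 ± 0.23 and Cnp by 1.05 ± 0.23 on the log2 scale, and Cldn11 by 2.05 ± 0.54. The summed level of the list was 2116 to 3090 CPM in adult and 4323 to 5631 CPM in young IP, without overlap. Without the last 10 sample numbers 3 of the 21 fell. In the supernatant 13 of the list fell and 2 rose, against 10.2% and 10.1% of all genes, and the age difference of 0 of the 21 differed between the fractions. Trf, the transferrin gene of oligodendrocytes, was the 1 that rose (1.19 ± 0.30). Without adult replicate 1 or 2, or young replicate 1, 2 or 4, 0 of the 21 rose, as with the replicate block. Of 15 genes of oligodendrocyte precursors, only Olig1 passed, as lower (-1.08 ± 0.22), but the list's median was -0.78. Its summed level was 246 to 365 CPM in adult and 504 to 585 CPM in young IP, without overlap. In the supernatant 8 of these 15 genes fell and 1 rose. Of 16 astrocyte genes, Gfap fell, from 305 ± 42.5 to 102 ± 47.7 CPM (-1.56 ± 0.28, edgeR adjusted p = 0.00268). The astrocyte list did not go with Gfap: its median was 0.20, and its summed level was 1144 to 1910 CPM in adult and 1318 to 1616 CPM in young IP, with medians of 1390 and 1372. Of 18 genes of immature neurons, Marcksl1 fell, from 446 ± 38.8 to 254 ± 30.2 CPM (-0.77 ± 0.11, edgeR adjusted p = 0.000274). None of 17 microglia, 19 endothelial and mural, 12 ependymal, 12 meningeal and 5 blood genes passed the edgeR test. Their median log2 fold changes were 0.16, -1.26, -0.22, -0.95 and -1.14 in that order. Endothelial genes summed to 25.8 to 173 CPM in adult and 87.6 to 237 CPM in young IP. These cells' part in the gene groups above was not tested.

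Among nuclear long noncoding RNAs, which ribosomes are not expected to hold, 3 of 10 fell and 0 rose. Malat1, a nuclear speckle RNA, went from 1196 ± 274 to 448 ± 183 CPM (-1.39 ± 0.30, edgeR adjusted p = 0.00875). Miat fell by 1.74 ± 0.38 on the log2 scale and Meg3 fell 2.2-fold (SE 0.27 on the log2 scale; edgeR adjusted p = 0.0100 and 0.0190). Meg3 lost its call without adult replicate 3 (adjusted p = 0.0526), and without the last 10 sample numbers 1 of the 10 passed. Malat1 fell in the supernatant too (-0.74 ± 0.20, edgeR adjusted p = 0.00994), and its adult IP values, 270.5 to 699 CPM, lay below every young value.

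Steroid receptors carry ovarian feedback, and GnRH neurons are known to respond directly to estradiol through Esr2. Of 7 receptor genes 0 passed (edgeR, with a median log2 fold change of 0.05). Esr1, the estrogen receptor alpha gene, had 2.77, 45.8, 14.2, 8.68 and 0.550 CPM in adults and 1.89 to 9.47 CPM in young mice (1.48 ± 0.75, edgeR adjusted p = 0.314). The single high value was adult replicate 2, and without it the log2 fold change was 0.30. Esr2 had 8.43 CPM in that library and 0.0786 to 0.746 CPM in the other adults, against 0.119 to 2.45 CPM in young mice, and its log2 fold change of 1.17 ± 1.31 turned to -1.61 without the library. Pgr averaged 28.6 ± 11.7 and 28.7 ± 9.53 CPM in adult and young mice. Kiss1r had 15.4, 17.3, 22.5, 48.2 and 51.0 CPM in adults and 16.6 to 25.9 CPM in young mice (0.62 ± 0.38, edgeR adjusted p = 0.442). In the young control IP it held 18.1 CPM, inside the young range. Xist, at 0.0465 to 3.59 CPM in adults and 0.696 to 18.1 CPM in young mice, differed by -2.36 ± 1.13 (log2, edgeR adjusted p = 0.277), and Tsix overlaps it on the other strand.

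Of the 13 genes listed for GnRH neurons, Gal and Six3 rose, Tbx3 fell and 10 did not pass (median 0.38). Six3, a homeobox gene of GnRH neuron development, had 0.65 ± 0.18 (edgeR adjusted p = 0.0461), a call lost in 10 of the 11 fits without 1 library. Tbx3 had 1 read in the adult libraries together and 0.0954 to 2.85 CPM in young mice (ratio of young to adult summed reads 302, 95% exact interval 53.8 to 11946, counting error only). Its call was lost in 7 of those fits. In the control without Cre, Tbx3 was 2.17-fold higher in the IP than in its supernatant (2.74 and 1.26 CPM). Without the genes high in the control IP, 1 of 11 listed genes tested rose and 0 fell. The 158 genes that were at least 2-fold enriched in the IP of DHT mice, a set chosen without any vehicle library and free of genes high in the control IP, had a median age difference of 0.24. Of them 1 was higher in adult vehicle IP (0.633%) and 2 lower (1.27%), against 2.04% and 1.79% of all genes. The 1 that rose was Resp18, an endocrine granule protein gene, at 865 ± 272 CPM in adults and 448 ± 107 CPM in young mice (SD, n = 5 and 6; 0.98 ± 0.26, edgeR adjusted p = 0.0378). The 2 that fell were Bcl2l11 and Stra8. These 3 were named after their values were seen.

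In other neuronal lists few genes passed, though some medians were as high as that of the secretory pathway: 0.50 for the GABA system, 0.46 for the extracellular matrix and 0.42 for axon guidance. Of 14 tubulin genes 3 rose, among them Tubb4b (0.49 ± 0.10) and Tuba1b (0.56 ± 0.13) beside Tuba1c. Without the last 10 sample numbers 1 of the 14 rose. Of 35 genes of G protein and cAMP signalling 3 rose: Gnai1 (0.77 ± 0.15), Prkar1b (0.46 ± 0.11) and Gnas (0.38 ± 0.10). Of 30 genes of vesicle release, the synaptotagmin genes Syt4 (1.11 ± 0.22) and Syt5 (0.57 ± 0.14) rose and the complexin gene Cplx1 fell (-0.63 ± 0.14). Of 38 genes of axon guidance Plxna3 (1.44 ± 0.34) and Slit2 rose, and of 18 of the extracellular matrix Spock1 rose (1.13 ± 0.22). Of 23 genes of cholesterol synthesis Fdft1 (0.88 ± 0.17) and Fdps (0.68 ± 0.14) rose. The rise of Fdps was larger than in the supernatant (0.68 ± 0.16, edgeR adjusted p = 0.0275, and 0.0622 with the replicate block). Exons of Fdft1 and the lysosomal gene Ctsb overlap on opposite strands, so reads of 1 may be counted for the other. Of 23 autophagy genes Atg7 and Lamp1 (0.51 ± 0.14) rose and Map1lc3b fell (-0.60 ± 0.12). Of 25 genes of the GABA system Gabra3, a receptor subunit, rose (1.13 ± 0.31). Of 17 genes of pubertal timing and imprinting, Grb10 rose (1.09 ± 0.30) and Meg3 fell. The calls of Gnas, Gabra3, Lamp1, Grb10 and Syt5 were each lost in 4 to 9 of the 11 fits without 1 library. By edgeR 0 of 45 potassium channel, 27 glutamate receptor, 38 peptide receptor, 11 acetylcholine receptor, 20 clock, 20 immediate early, 35 oxidative phosphorylation and 79 ribosomal protein genes passed. Their medians lay between -0.34 for the immediate early genes and 0.28 for the glutamate receptors.

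The age contrast in DHT mice shares no library with that in vehicle mice. There 1131 of 15890 genes passed (7.12%), 604 higher (3.8%) and 527 lower (3.32%). Of the 324 genes higher in vehicle adults, 158 (48.8%) also passed as higher in DHT mice, which is 26.2% of the DHT rises, and 317 had the same sign. Of the 284 lower ones, 175 (61.6%) passed as lower, which is 33.2% of the DHT falls, and 268 had the same sign. Of all genes tested 67.3% had the same sign in both contrasts. The 2 age differences differed for 0 genes by edgeR, with 857 genes at an unadjusted p below 0.05 and 83 called by DESeq2. Of the 12 largest rises 7 passed in DHT mice, and of the 12 largest falls 9 did.

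In the supernatant of the same vehicle mice 3301 of 16286 genes passed (20.3%), 1641 higher (10.1%) and 1660 lower (10.2%). Of the IP rises 166 of 324 (51.2%) also rose there, and 0 fell. Of the IP falls 157 of 284 (55.3%) fell there and 6 rose. The test of the difference between fractions called 173 of 16660 genes (1.04%), 44 with the higher age difference in the IP (0.264%) and 129 with the lower (0.774%). Among the 324 rises it called 31 (9.57%), and among the 284 falls 78 (27.5%). An IP and its supernatant of 1 replicate share their tissue, and a fit that blocked on the replicate called 47 and 58. Of the 12 largest falls, 10 differed from the supernatant by the test, and of the 12 largest rises 3 did. The rises and falls were chosen with the same IP libraries that enter this test, which favours such calls among them. For Il33, Kiss1, Mobp and the other genes that moved alike in both fractions, RNA of GnRH neurons and RNA carried over from the tissue cannot be told apart.

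**Figure D4:**
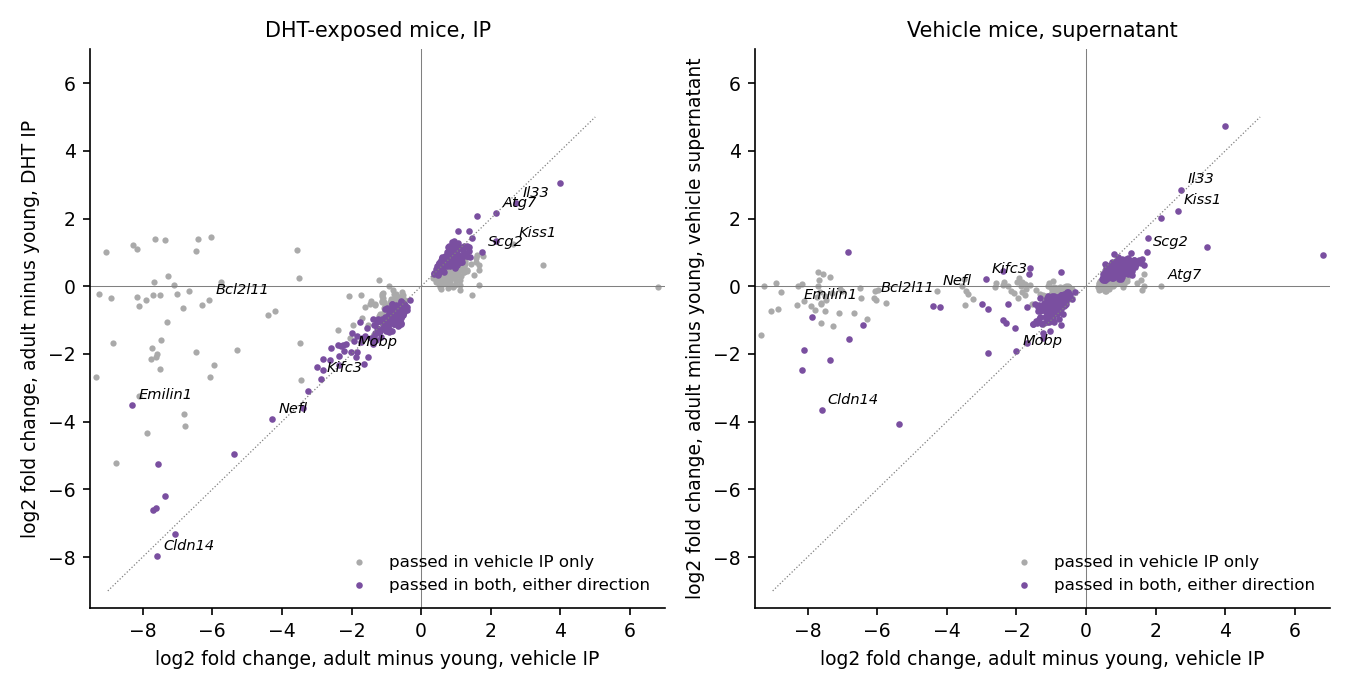
Each point is a gene that passed in the adult against young vehicle IP comparison, with its log2 fold change there on the x axis and, on the y axis, its log2 fold change in the IP of DHT-exposed mice (left) or in the vehicle supernatant (right). Purple points passed in both comparisons and the dotted line marks equal values. Nefl lies near the line on the left, at -3.93, and near 0 on the right, at -0.14, while Il33 lies near the line in both.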

How the data were processed

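Libraries of IP and supernatant RNA from female preoptic area were made with the SMARTer v4 Ultra Low poly(A) kit, per the labels' protocols, which does not mark strand. The authors deposited a table of estimated counts for 23284 genes in 48 libraries. Of its values 98.49% were whole with no tolerance applied, and all were rounded for testing. The submitters' processing notes name mm10 and, in no given order, DESeq2 1.14.1, HTSeq 0.6.1, Cuffdiff 2.1.1, Cufflinks, Bowtie2 2.2.1, TopHat2 2.0.13 and FastQC 0.11.3. The counting tool and the annotation are not given in the sources used here, so reads of gene copies may be split in an unknown way.

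Groups and replicate numbers came from the labels. With edgeR 4.0.16 in R 4.3.3, filterByExpr selected genes (minimum count 10, minimum total 15), TMM scaled the libraries, and genes were tested by the quasi-likelihood F test with Benjamini-Hochberg adjustment (threshold 0.05) in 1 fit of the 23 IP libraries of Cre mice. The supernatant was fitted apart in 23 libraries, and the difference between fractions in all 46. The 4 groups of a fit share an estimate of spread. Standard errors came from the F statistic. CPM was scaled to the library total. At these depths 1 read is worth far less than 1 CPM.

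Named genes are the 12 largest rises and falls among those that passed, did not overlap and averaged 5 CPM or more in the group where they were higher, and 2 to 4 members per described list, by smallest adjusted p. To these come Gnrh1, Kiss1r, Gal, Esr1, Esr2, Pgr, Rpl10a and Xist. Predicted genes were not named, and some genes of the rule are not reported here. Other members that passed were named after their values were seen. The comparison and 35 gene lists were chosen with earlier results of these data known, and 3 lists were added after values were seen. Of 890 list genes, 886 matched the table. Gene positions are from GENCODE M21. Alternatives were DESeq2 1.42.0, limma-voom (limma 3.58.1), RLE and upper-quartile scaling, other filters, other sets of libraries, a replicate block and leaving out each library. Fits without genes high in the control IP, and without both adult replicate 2 and the last 10 sample numbers, were chosen after seeing the data. The 2 control libraries entered no fit.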

Additional observations from a re-analysis of the deposited data

Results flagged for a closer look

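In 7 of 168 groups of libraries checked, 1 library lay far from the others, where chance alone gives about 1 in 20. In adult vehicle IP these were Scg2 at 1174 CPM, Esr2 at 8.43 CPM and Syt4 at 208 CPM, each the high value of replicate 2, and Tbx3 at 0.0262 CPM, the 1 adult library with a read. In young vehicle IP they were a high Rpl10a value of 301 CPM (replicate 6), a high Mobp value of 727 CPM (replicate 3) and a low Tspan2 value of 90.8 CPM (replicate 6).

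For 20 named genes the age difference of vehicle mice differed between IP and supernatant by edgeR's test. These genes were named by IP values that also enter this test. The IP exceeded the supernatant, in log2 units, by 2.18 for Atg7, 1.76 for Kalrn, 1.41 for Ubr3, 0.73 for Cct4, 0.68 for Cct7 and 0.68 for Fdps. It lay below it by -7.70 for Emilin1, -6.77 for Tbx3, -5.78 for Phldb2, -5.70 for Bcl2l11, -4.10 for Nefl, -3.90 for Cldn14, -3.54 for Birc5, -3.04 for Kifc3, -2.83 for Olfr1033, -2.63 for Nefh, -2.54 for Tcf20, -2.41 for Srcin1, -2.08 for Nefm and -0.67 for Ina. The values of Emilin1, Tbx3, Phldb2, Bcl2l11, Cldn14 and Birc5 rest on few adult reads and depend on the small count added before taking logs. With the replicate block, Fdps, Tbx3 and Birc5 lost the call (edgeR adjusted p = 0.0622, 0.147 and 0.0677). In a fit of the 22 vehicle libraries alone Ina lost it (edgeR adjusted p = 0.0641).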

How the results depend on the processing

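In every fit run, each of the 74 named genes that passed kept its direction where it was tested, but not its call. With DESeq2 74 still passed, with voom 70, with RLE 72, with upper-quartile scaling 65 and in the fit of the 11 libraries alone 61. Without the last 10 sample numbers 58 did, and with a term for them 70. Without these numbers and adult replicate 2 it was 52, and with the replicate block 37. Leaving out each library left 59 to 71. The 74 were picked for passing in the main fit, and these fits reuse its vehicle libraries. A kept direction was thus largely set in advance. The counts of genes moved more. Against 324 higher and 284 lower, DESeq2 gave 560 and 678, voom 492 and 471, upper-quartile scaling 169 higher, the fit of the 11 libraries alone 179 higher, the fit without the last 10 sample numbers 202 and 170, and that without them and adult replicate 2 156 and 153. With a term for the last 10 sample numbers the counts were 389 and 324. Leaving out each library in turn gave 154 to 348 higher and 149 to 255 lower. In DHT IP DESeq2 called 891 lower. With a replicate block the counts were 55 and 110 in vehicle IP. Same-numbered adult and young libraries did not deviate together (correlations -0.07 to 0.12), 1 of the 5 adult libraries correlated best with its own number, and the numbers were not taken as pairs. Between IP and supernatant the block left 58 of 129 lower calls. DESeq2 called 83 genes between the vehicle and DHT age differences, where edgeR called 0.

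Directions turned for genes that did not pass. Esr1 was -0.064 without the last 10 sample numbers and adult replicate 2, where Esr2 was -2.01, Pgr -0.22 and Rpl10a 0.20. With voom Esr2 was -1.27, Pgr -0.20 and Rpl10a 0.057. With the replicate block Esr2 was -0.49 and Pgr -0.15. Pgr was -0.036 with upper-quartile scaling. Without the last 10 sample numbers Pgr was -0.079 and Rpl10a 0.067, and with a term for them -0.19 and 0.042. Over the fits without 1 library Esr2 ran from -1.61 to 1.75, Pgr from -0.16 to 0.21 and Rpl10a from -0.26 to 0.025. The causes were not tested. Depth limits the low genes: an adult library with 0 reads allows no fold change.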
